A study of Mus musculus with 8 samples.

Results

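The 10 genes that encode core cardiac transcription factors were followed in mouse hearts at 2 ages after birth. They were the GATA zinc finger genes Gata4 and Gata6, the homeobox gene Nkx2-5, the T-box genes Tbx5 and Tbx20, the MADS-box genes Mef2a, Mef2c and Mef2d, the basic helix-loop-helix gene Hand2 and the homeobox gene Meis1. Members were found by their gene symbol in the tables of all 8 hearts, and where a symbol named several loci the locus with the highest mean was taken, which concerned 1 of the 10 genes (Hand2). All 10 were found among 80155 loci, of which 39614 carried a gene symbol.

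These proteins bind short DNA motifs at the enhancers and promoters of heart muscle genes, often side by side and in contact with each other. GATA4, NKX2-5 and TBX5 act together on sarcomere, ion channel and natriuretic peptide genes. The MEF2 proteins bind an AT-rich element and are held inactive by class IIa histone deacetylases, HAND2 shapes the right ventricle and is also made by fibroblasts and epicardial cells, and MEIS1 is known to restrain the division of cardiomyocytes after birth, partly through inhibitors of cyclin-dependent kinases. Mouse cardiomyocytes stop dividing within the first postnatal week, and the neonatal ability to regenerate the heart is lost over the same days.

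Whole hearts, with the atrial appendages removed, were taken from male mice of the Hsd:ICR(CD-1) stock, 4 at postnatal day 1 (P1) and 4 at postnatal day 7 (P7). No treatment is named in the labels, and the question was which transcripts differ between the regenerative and the non-regenerative stage. RNA without ribosomal RNA was sequenced in paired ends, and the authors expressed each locus as FPKM, that is fragments per kilobase of transcript, scaled to the mapped fragments of the library. Each heart gave 1 library, and the labels number the hearts without stating which were littermates.

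Differential expression was called at an adjusted p below 0.05 with stage means at least 1.5-fold apart, from limma on log2(FPKM + 1) over 43172 loci, with Benjamini-Hochberg adjustment over all of them. Among the 17960 tested loci with a symbol, 1390 (7.74%) were called higher in P7 and 72 (0.401%) lower. Every P7 heart lay above every P1 heart for 17.3% of them and below for 2.69%. The median log2 fold change of the 14662 such loci with a mean of at least 1 FPKM at both stages was 0.21, so the members are also given relative to it, and median-ratio scaling moved that median to 0.02 and the calls to 1388 higher and 621 lower. The FPKM values came without fragment counts. The paper gives a read total over all libraries and a mapping summary per sample, which were not used here. The spacing of low values put 1 fragment on a locus of 1 kb at 0.0443 to 0.0714 FPKM. The least covered member value (Tbx5, P1 replicate 3) then rested on about 426 fragments, a counting error of 4.85%.

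A pair of limits touches the results below. Whole hearts were measured, so a change in the number of cells of a type and a change in RNA per cell cannot be told apart. The fold change also moved with the base composition of the transcripts. Among loci with a mean of at least 5 FPKM, the median log2 fold change was 0.00 for the 1873 loci with a GC content of 40 to 45%, of which 0.908% were called higher, and 0.76 for the 1257 loci with a GC content of 55 to 60%, of which 36.3% were called higher.

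Of the 10 members, 1 was called higher in P7 (Mef2d) and 0 lower, beside the background of 7.74% and 0.401% of annotated loci. In 4 of the 10 there was no overlap between the stages, with P7 higher each time (Gata4, Nkx2-5, Tbx5 and Mef2d), beside a background of 17.3%. With median-ratio scaling 0 of the 10 lay above without overlap and 3 lay below (Mef2a, Mef2c and Tbx20). With GC correction 2 lay above (Mef2d and Tbx5) and 1 below (the chosen Hand2 locus). That locus was corrected with the GC content of the Hand2 transcript, which it may not hold. At an unadjusted p under 0.05 there were 4 in this limma fit, the same 4 genes of the deposited values. No share of annotated loci at that p, or without overlap under those 2 treatments, is given beside these counts. Hand2 entered these counts by its chosen locus. Its other locus, described below, was called higher in P7 and did not overlap between the stages. In all, 6 log2 fold changes were above 0 and 4 below it, with a median of 0.36. Relative to the median of annotated loci the members ran from -0.41 (Tbx20) to 0.62 (Mef2d), and Gata4 (0.43), Nkx2-5 (0.37), Tbx5 (0.37), Gata6 (0.26) and Meis1 (0.035) were above it. The mean levels spanned 13.2-fold, from 10.4 FPKM for Tbx5 to 138 FPKM for Tbx20.

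**Figure D1:**
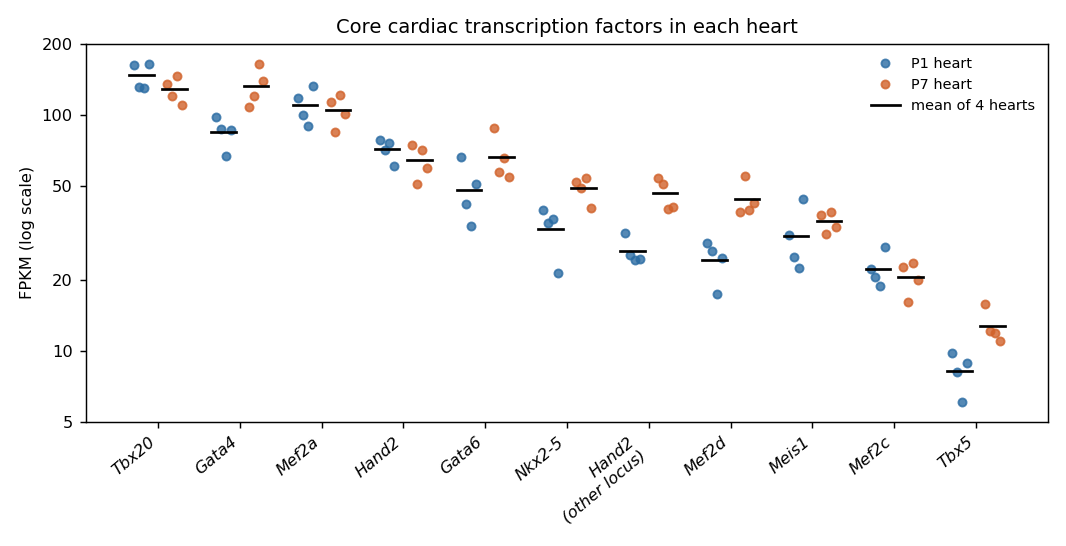
FPKM on a log axis of each member, and of the other Hand2 locus, in the 4 P1 hearts (blue) and the 4 P7 hearts (orange); the black bar is the mean of 4 hearts. Gata4, Nkx2-5, Tbx5, Mef2d and the other Hand2 locus show no overlap between the stages, whereas Tbx20, Mef2a, Mef2c, Meis1, Gata6 and the first Hand2 locus overlap.

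Gata4 (chr14:63194216-63272027), a zinc finger factor required for heart tube formation and for the hypertrophic response, was read at 97.7, 87.5, 66.7 and 86.6 FPKM in P1 replicates 1 to 4 and at 108, 120.0, 165 and 139.6 FPKM in the P7 replicates. All P7 hearts lay above all P1 hearts, although the gap between P1 replicate 1 and P7 replicate 1 was small beside the spread within either stage. The means were 84.6 ± 13.0 and 133 ± 24.8 FPKM (SD, n = 4), a log2 fold change of 0.64 ± 0.21 (SE) with a limma adjusted p of 0.11, so the difference did not pass the threshold. It passed (adjusted p = 0.037) when only loci with at least 1 FPKM in every heart were tested. The log2 fold change was 0.40 with median-ratio scaling (adjusted p = 0.20), 0.27 with GC correction (adjusted p = 0.46) and 0.018 with both (adjusted p = 0.94), and the stages overlapped under each of these.

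Gata6, on chromosome 18, encodes the second GATA factor of the myocardium and of the endoderm. It was read at 66.0, 41.9, 33.9 and 51.2 FPKM in P1 and 88.3, 57.4, 65.7 and 54.8 FPKM in P7. P1 replicate 1 lay above 3 of the P7 hearts, so the stages overlapped. The log2 fold change of 0.47 ± 0.24 had a limma adjusted p of 0.31. A further locus on the same coordinates, AC130654.1, was read at 13.2 to 21.1 FPKM, and whether the counting used strand is not given in the sources used here.

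The share of GATA transcript belonging to each gene was compared within hearts, which removes any scaling common to a heart. Gata6 was 0.479 to 0.676 times Gata4 in P1 and 0.393 to 0.818 times in P7. The log2 difference of -0.17 was not beyond the spread (exact permutation test, two-sided, p = 0.54, and 0.65 after Benjamini-Hochberg adjustment over the 6 ratios tested).

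Nkx2-5 (chr17:26835756-26897886), the NK2 homeobox factor that partners GATA4 and TBX5 in the conduction system and the chambers, stood at 39.4, 34.8, 36.2 and 21.4 FPKM in P1 and at 52.0, 49.0, 54.1 and 40.3 FPKM in P7. The lowest P7 heart, replicate 4, was just above the highest P1 heart, replicate 1, and P1 replicate 4 lay well under the rest. The means were 33.0 ± 7.92 and 48.8 ± 6.08 FPKM, and the log2 fold change of 0.58 ± 0.22 (limma adjusted p = 0.18) did not pass. Without P1 replicate 4 it was 0.39. On the same coordinates lay 9 other loci, the highest being a Gm17382 locus (XLOC_029901) at 3.25 to 5.98 FPKM. Gata4 was 1.84 to 4.04 times Nkx2-5 in P1 and 2.08 to 3.46 times in P7, and this ratio did not differ beyond the spread (exact permutation p = 0.86, adjusted 0.86).

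The T-box pair is given next. Tbx5 (chr5:119829086-119885546), whose product activates the natriuretic peptide and connexin genes and is dosage sensitive in Holt-Oram syndrome, was the lowest member in every heart, at 9.78, 8.09, 6.04 and 8.89 FPKM in P1 and 15.8, 12.1, 11.9 and 11.0 FPKM in P7. All P7 hearts were higher than all P1 hearts. The log2 fold change was 0.58 ± 0.20, with a limma adjusted p of 0.14. A locus without a symbol on the same coordinates, XLOC_057307, had means of 7.01 FPKM in P1 and 9.45 FPKM in P7. Its part in the Tbx5 values was not tested.

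Tbx20 (chr9:24720497-24774363), which encodes a T-box factor able to repress as well as activate and needed in adult cardiomyocytes, was the highest member, at 163, 132, 130.3 and 164 FPKM in P1 and 135, 121, 147 and 109.8 FPKM in P7. The stages overlapped and the log2 fold change was -0.20 ± 0.19 (limma adjusted p = 0.54). With median-ratio scaling it was -0.44 and with a correction for GC content 0.063, so its direction depended on the treatment of the values.

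Within each heart, Tbx20 was 16.7, 16.3, 21.6 and 18.5 times Tbx5 in P1 and 8.58, 10.02, 12.4 and 9.95 times in P7. The highest P7 ratio was below the lowest P1 ratio. The geometric mean went from 18.1 to 10.1, a log2 difference of -0.84, with an exact permutation p of 0.029, the smallest that 4 against 4 hearts can give, and 0.057 after adjustment over the 6 ratios. After correction for GC content the log2 difference was -0.52, again with an exact permutation p of 0.029, here not adjusted over the 6 ratios.

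Mef2d (chr3:88138623-88177785), a MEF2 factor that mediates stress-dependent remodelling of the heart, rose. It was read at 28.7, 26.5, 17.4 and 24.7 FPKM in P1 and at 38.6, 55.01, 39.4 and 42.5 FPKM in P7, every P7 heart being above every P1 heart. The means were 24.3 ± 4.91 and 43.9 ± 7.61 FPKM, a ratio of 1.80 and a log2 fold change of 0.83 ± 0.21 with a limma adjusted p of 0.045, or 0.62 above the median of annotated loci. This call was narrow. It was lost when any 1 heart was left out, except P1 replicate 4 (adjusted p = 0.037), and over the other 7 omissions the adjusted p was 0.066 to 0.11. It was also lost with median-ratio scaling (log2 fold change 0.60, adjusted p = 0.13) and after correction for GC content (0.56, adjusted p = 0.17). The longest Mef2d transcript has a GC content of 55.03%, and its part in the result was not tested beyond that correction. A locus on the same coordinates, AC137525.1, was read at 7.33 to 17.0 FPKM.

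Mef2a (chr7:67231163-67372865), the most abundant MEF2 gene, whose product is linked to mitochondrial and sarcomere upkeep, was read at 118, 100.1, 89.8 and 133 FPKM in P1 and 113, 84.4, 122 and 101 FPKM in P7. Mef2c (chr13:83504034-83667850), needed for looping and the right ventricle in the embryo, was read at 22.1, 20.5, 18.9 and 27.5 FPKM in P1 and 22.7, 16.1, 23.6 and 19.98 FPKM in P7. For both genes the stages overlapped throughout. The log2 fold changes were -0.06 ± 0.20 (limma adjusted p = 0.87) and -0.11 ± 0.19 (adjusted p = 0.75). With median-ratio scaling they were -0.30 and -0.34, every P7 heart then lying below every P1 heart, and with correction for GC content 0.20 and 0.17, so no direction can be given.

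Mef2c and Mef2a kept nearly 1 ratio. Mef2c was 0.188 to 0.2101 times Mef2a over the 4 P1 hearts and 0.191 to 0.2005 times over the 4 P7 hearts (exact permutation p = 0.23, adjusted 0.34). Their centred log2 profiles over the 8 hearts differed by a root mean square of 0.05, which placed Mef2c at rank 5 of nearness to Mef2a among 9262 annotated loci with a mean of at least 5 FPKM, after Nfib, Caprin1 and others.

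Mef2d did not keep a constant ratio to either. It was 0.244, 0.265, 0.194 and 0.186 times Mef2a in P1 and 0.340, 0.652, 0.324 and 0.419 times in P7, a log2 difference of 0.92 (exact permutation p = 0.029, adjusted 0.057). Against Mef2c the ratio ran from 0.897 to 1.297 at P1 and from 1.67 to 3.42 at P7, a log2 difference of 0.97 with the same p-values. Neither pair of ranges overlapped. With correction for GC content the differences were 0.38 and 0.40, each with an exact permutation p of 0.17. As a share of the summed FPKM of the 3 MEF2 genes, Mef2d stood at 15.6 ± 2.33% in P1 and 26.2 ± 6.46% in P7, and P7 replicate 2 was highest with 35.4%.

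**Figure D2:**
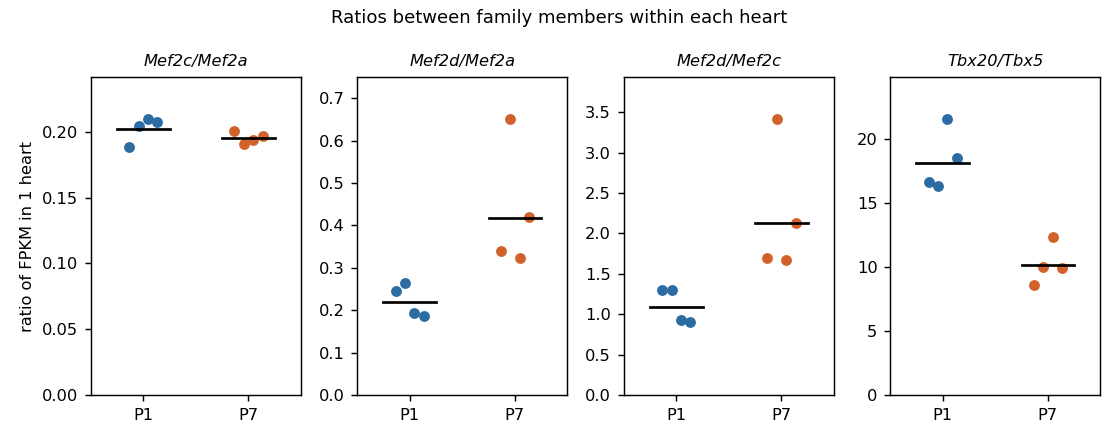
Ratio of FPKM between family members within each heart, for 4 P1 hearts (blue) and 4 P7 hearts (orange), each axis starting at 0; the black bar is the geometric mean. Mef2c/Mef2a overlaps between the stages near 0.20, Mef2d is higher against both relatives in every P7 heart, and Tbx20/Tbx5 is lower in every P7 heart (18.1 against 10.1).

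The 250 bases upstream of the annotated starts of the 3 MEF2 genes are shown because 2 of the genes shared a profile and 1 did not. They come from the RefSeq promoter table (GRCm38.p6), each on its own strand, and capitals mark CpG dinucleotides. The windows are chr7:67372859-67373108 (minus strand) for Mef2a, chr13:83503784-83504033 (plus strand, the first of 3 starts) for Mef2c and chr3:88142122-88142371 (plus strand) for Mef2d.
Mef2a: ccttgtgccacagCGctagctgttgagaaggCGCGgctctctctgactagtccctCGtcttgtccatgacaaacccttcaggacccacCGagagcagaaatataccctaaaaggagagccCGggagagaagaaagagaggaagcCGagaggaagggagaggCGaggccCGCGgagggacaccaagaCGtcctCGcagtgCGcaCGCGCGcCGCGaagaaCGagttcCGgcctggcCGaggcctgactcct
Mef2c: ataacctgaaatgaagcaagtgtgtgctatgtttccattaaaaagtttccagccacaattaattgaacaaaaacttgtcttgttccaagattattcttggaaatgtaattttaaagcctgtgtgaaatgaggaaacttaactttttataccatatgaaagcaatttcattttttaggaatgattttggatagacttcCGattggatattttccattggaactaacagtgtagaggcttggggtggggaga
Mef2d: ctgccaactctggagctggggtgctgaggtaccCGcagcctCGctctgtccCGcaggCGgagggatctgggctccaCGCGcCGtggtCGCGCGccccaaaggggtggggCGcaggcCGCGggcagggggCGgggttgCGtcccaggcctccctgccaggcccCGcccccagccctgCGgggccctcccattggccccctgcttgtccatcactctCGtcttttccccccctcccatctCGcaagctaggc
The Mef2d window had a GC content of 73.2% with 19 CpG, the Mef2a window 61.6% with 21 CpG and the Mef2c window 33.6% with 1 CpG, where the median of 32536 promoters was 52.4% and 6. At the other Mef2c starts the windows had a GC content of 44.8% with 6 CpG and 49.6% with 4 CpG, and which start the hearts use was not determined. The longest transcripts had a GC content of 42.0% for Mef2a and 40.8% for Mef2c. Whether either composition has a part in the near constant ratio of Mef2c to Mef2a was not tested.

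Hand2 was the 1 member with several loci. The locus chosen by its higher mean was read at 78.5, 71.1, 75.9 and 60.5 FPKM in P1 and 74.6, 51.1, 70.9 and 59.7 FPKM in P7. The stages overlapped and the log2 fold change was -0.16 ± 0.19 (limma adjusted p = 0.62). The other locus was read at 31.6, 25.4, 24.2 and 24.5 FPKM in P1 and 54.0, 51.0, 40.1 and 40.8 FPKM in P7, so that the stages did not overlap and P7 was higher. Its log2 fold change was 0.79 ± 0.19 with a limma adjusted p of 0.038, which met both thresholds. This call was lost with median-ratio scaling (0.55, adjusted p = 0.12, the stages then overlapping), with quantile normalization (0.54, adjusted p = 0.12), with no filter (adjusted p = 0.062), without a trend (adjusted p = 0.057) and when any 1 heart was left out, except P1 replicate 4 (adjusted p = 0.033), the other 7 omissions giving 0.056 to 0.13. The sum of both loci gave 0.17 (adjusted p = 0.58). Comparing the other locus was decided after its values were seen.

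Within each heart the other locus was 0.319 to 0.406 times the chosen one in P1 and 0.565 to 0.996 times in P7 (log2 difference 0.98, exact permutation p = 0.029). Both loci were given the same coordinates, chr8:57291557-57325459, together with 15 loci without a symbol, and the tables give no strand. On chromosome 8 the locus numbers fall in 2 runs. In the run of the other locus 94.5% of 600 named loci lie on the strand of Hand2 in GENCODE, and in the run of the chosen locus 10.1% of 556 do. In every other member the locus lay in the run that shares its gene's strand for 85.8 to 96.7% of named loci. Which of the loci holds the Hand2 transcript was not tested further, and the call for Hand2 depends on it. For the other locus the call was lost after correction for GC content (log2 fold change 0.36, limma adjusted p = 0.32). The chosen locus was called lower when that correction was joined to median-ratio scaling (-0.84, limma adjusted p = 0.045). Both loci were corrected with the GC content of the Hand2 transcript, which the chosen locus may not hold.

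**Figure D3:**
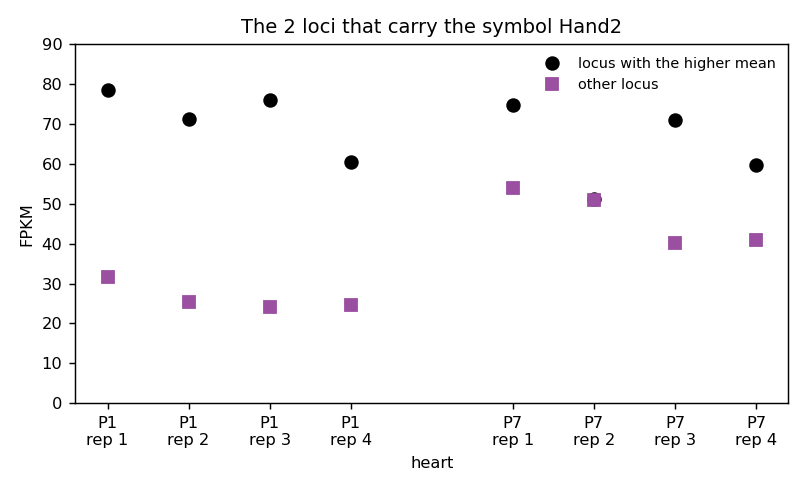
FPKM of the 2 loci that carry the symbol Hand2 in each of the 8 hearts, the axis starting at 0. The locus with the higher mean (black circles) overlaps between the stages, and the other locus (purple squares) is at 24.2 to 31.6 in P1 and 40.1 to 54.0 in P7, where P7 replicate 2 has both loci near 51.

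Hand2 is shown with its upstream window because an antisense gene starts inside it. In RefSeq the long non-coding RNA gene Hand2os1 runs the other way from a start 124 bases before that of Hand2. The window is chr8:57320733-57320982 on the plus strand (GRCm38.p6), and capitals mark the 123 bases between both starts.
Hand2: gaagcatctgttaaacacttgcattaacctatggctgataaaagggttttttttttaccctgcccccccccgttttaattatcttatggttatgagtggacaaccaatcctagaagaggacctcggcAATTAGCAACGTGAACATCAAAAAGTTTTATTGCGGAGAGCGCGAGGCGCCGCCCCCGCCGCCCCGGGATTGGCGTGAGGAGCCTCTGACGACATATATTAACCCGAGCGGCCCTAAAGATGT
The GATA motif TGATAA was found 215 bases and AGATAA (minus strand) 172 bases before the Hand2 start, and the NK2 motif CAAGTG (minus strand) 235 bases before it. Over 32536 promoter windows of this length, 7.79%, 9.97% and 11.5% held these motifs on either strand. Of the 10 members, 7 had a promoter in the table, and the others were Gata4, Gata6 and Tbx5. The T-box motif AGGTGT (11.9% of promoters), the MEIS motif TGACAG (15.8%) and the MEF2 motif (2.89%) were searched too. TGACAG was found in the Nkx2-5 window, 19 bases before the start on the minus strand. At the 3 Mef2c starts, AGGTGT was found at 1, and CAAGTG at 1, on the plus strand 234 bases before the start in the window printed above. The MEF2 motif was found in no member window.

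Meis1 (chr11:18880430-19018958), a TALE homeobox gene, was read at 30.9, 25.0, 22.4 and 43.9 FPKM in P1 and 37.8, 31.4, 38.9 and 33.4 FPKM in P7. P1 replicate 4 was the highest of all 8 hearts, so the stages overlapped. The log2 fold change was 0.25 ± 0.22 (limma adjusted p = 0.52), with a 95% interval of -0.23 to 0.72. Without P1 replicate 4 it was 0.43 (adjusted p = 0.16). The estimate was above 0 in 20 of 21 alternatives, at 0.51 with GC correction (unadjusted p = 0.043 in limma, adjusted p = 0.28) and -0.018 with quantile normalization. Several of the 21, such as another filter or a replicate block, leave the estimate unchanged by construction. The 2 loci on the same coordinates, Gm16140 and Gm16141, reached no more than 1.22 and 2.43 FPKM in any heart.

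**Figure D4:**
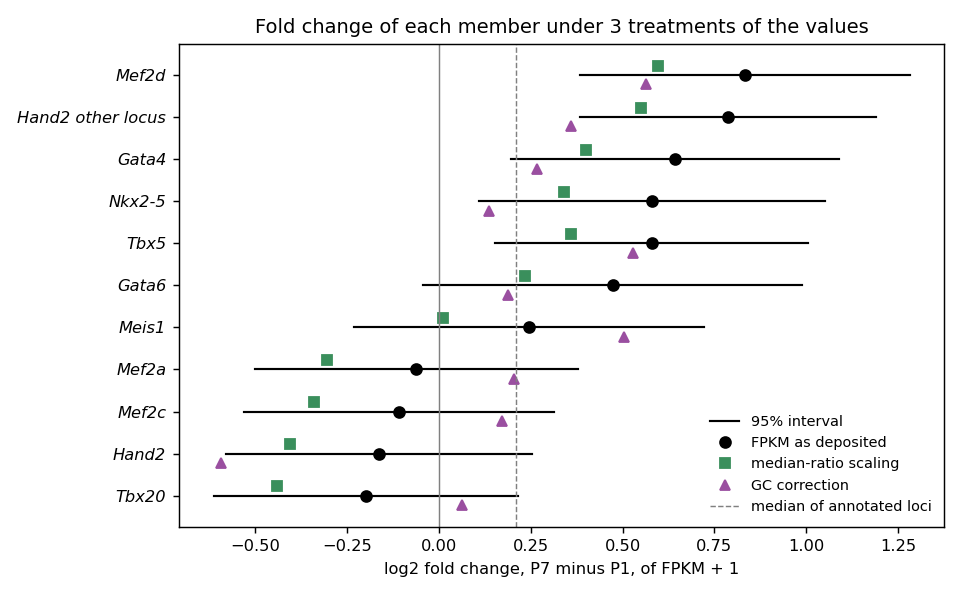
Log2 fold change (P7 minus P1) of each member and of the other Hand2 locus, from limma on log2(FPKM + 1), with its 95% interval (black), and the same estimate after median-ratio scaling (green squares) or correction for GC content (purple triangles); the dashed line is the median of annotated loci, 0.21. Mef2d has the highest estimate (0.83) and Tbx20 the lowest (-0.20), and for Mef2a, Mef2c and Tbx20 the GC correction crosses 0.

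The fold changes of the members went with the GC content of their longest transcripts. The 4 members with a GC content of 40.8 to 42.4% (Mef2c, Mef2a, Tbx20 and Meis1) had log2 fold changes of -0.20 to 0.25. Of the 6 members above 50%, Tbx5, Mef2d, Gata6, Gata4 and Nkx2-5 lay between 0.47 and 0.83, and the chosen Hand2 locus was at -0.16. The GC content of 59.3% is that of the Hand2 transcript, which the chosen locus may not hold, and the other Hand2 locus was at 0.79. The median over loci with a GC content of 55 to 60% was 0.76 (quartiles 0.53 and 0.99), where Gata4 was at 0.64 and Gata6 (55.3%) at 0.47, below the lower quartile. Mef2d (55.03%, 0.83) stood at the edge between that bin and the bin of 50 to 55%, whose median was 0.44 and whose upper quartile was 0.69. After correction for GC content, which was fitted in each heart over loci with a known transcript, 0 members were called by limma, and the highest estimate was 0.56 (Mef2d).

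**Figure D5:**
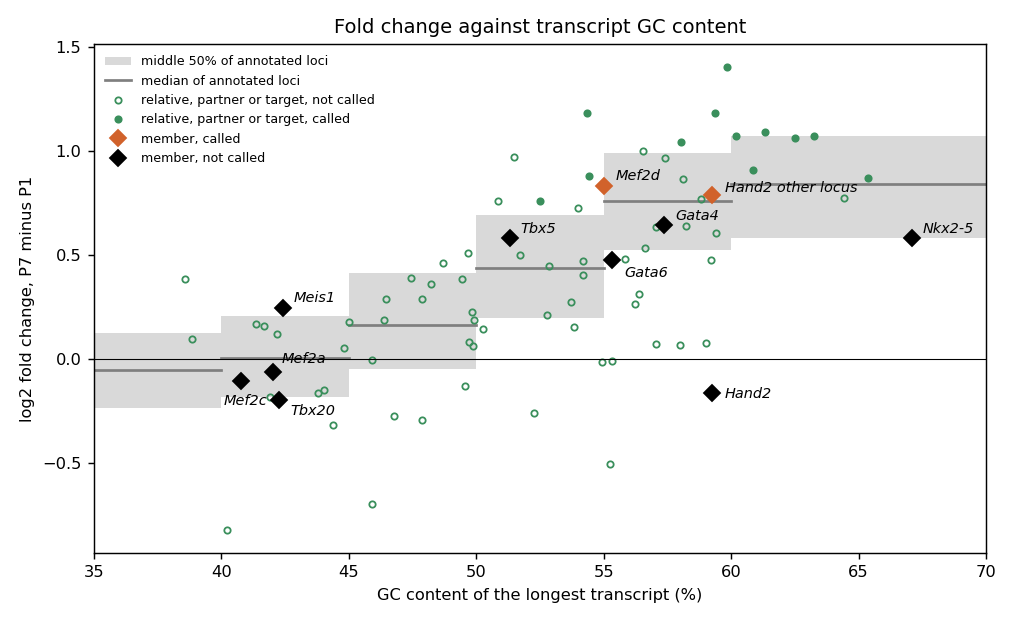
Log2 fold change (P7 minus P1) against transcript GC content, for the members (diamonds) and their relatives, partners and targets (circles); grey blocks are the middle 50% of annotated loci with a mean of at least 5 FPKM in bins of GC content, the outer bins drawn only as far as the axis. Mef2d (0.83) stands at the edge between bins with medians of 0.44 and 0.76, and the chosen Hand2 locus (-0.16) lies under its bin while the other Hand2 locus (0.79) lies inside it.

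In the order of mean levels, Tbx20 stood first, then Gata4, Mef2a, Hand2, Gata6, Nkx2-5, Mef2d, Meis1, Mef2c and Tbx5. Of the 9 neighbouring pairs, 4 differed within hearts (exact sign-flip test over 8 hearts, two-sided, adjusted p below the threshold). Mef2a was above Hand2, Meis1 above Mef2c and Mef2c above Tbx5 in 8 of 8 hearts (exact p = 0.0078, the smallest possible, adjusted 0.023), and Gata6 was above Nkx2-5 in 7 of 8 (exact p = 0.016, adjusted 0.035). Tbx20 and Gata4, Gata4 and Mef2a, Hand2 and Gata6, Nkx2-5 and Mef2d, and Mef2d and Meis1 did not differ beyond their spread over the 8 hearts. The test takes both stages together, so an order that turns between the stages can cancel in it. Gata4 was above Mef2a in 0 of 4 P1 hearts and 3 of 4 P7 hearts. Mef2d was above Meis1 in 1 of 4 P1 hearts and 4 of 4 P7 hearts. Tbx20 was first in all 4 P1 hearts, and in P7 replicates 3 and 4 Gata4 was first. The place of Hand2 rests on the chosen locus. With the other locus (36.4 FPKM), an order added after seeing the data, it came after Nkx2-5 and before Mef2d, did not differ from either beyond the spread (exact sign-flip p = 0.13 and 0.33, adjusted 0.20 and 0.42), and Mef2a was then followed by Gata6, which it exceeded in 8 of 8 hearts (adjusted exact p = 0.023).

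The genes with profiles nearest to a member were listed by the same measure over the 8 hearts. Nearest to Gata4 were Vegfb and Klhl30 (root mean square difference 0.07 and 0.08), to Tbx5 Ube2h and Mtss1 (0.06 and 0.07), to Gata6 Rbm24 and Mtss1 (0.11 and 0.12), and to Mef2d Scamp3 and Pld2 (0.13 and 0.14). Tbx5 itself was at rank 4 of nearness to Gata6 (0.14). Jam3 and Prickle1 were nearest to Meis1 (0.04 and 0.05), Tsc22d2 and Nfib to Mef2c (0.03 and 0.03), and Tmem134 and Trip6 to Nkx2-5 (0.10 and 0.10). The locus of mmu-mir-3061 and Swt1 were nearest to Tbx20 (0.08 and 0.08), and Hook1 and a let-7 locus to the chosen Hand2 locus (0.06 and 0.09).

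The genes around the members were taken from lists of relatives, partners and targets. Of 85 genes 76 were tested, and 13 were called higher and 0 lower, with a median log2 fold change of 0.35. With median-ratio scaling 11 were called higher and 3 lower, and with quantile normalization 12 and 4. The 3, named after their values were seen, were Hey2, the sodium-calcium exchanger gene Slc8a1 and the histone methyltransferase gene Ezh2 (log2 fold change -0.32 on the deposited values, adjusted p = 0.38, and -0.56, adjusted p = 0.047, with median-ratio scaling), to which quantile normalization added Tbx18 (-0.54, adjusted p = 0.047). For comparison, 7.74% of annotated loci were called higher on the deposited values. With quantile normalization 1454 of 18031 annotated loci were called higher and 642 lower. All 12 of the 13 with a known transcript had a GC content above 50% (52.5 to 65.4%). After correction for GC content 1 of the 76 was called, the potassium channel gene Kcna5. Over the 17960 annotated loci that correction left 383 called higher and 25 lower. Mkl1, which had no known transcript, was itself left uncorrected in that fit.

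Among 10 tested relatives 2 were called higher. Tbx2, a T-box repressor of the chamber programme, went from 2.97 to 7.37 FPKM (log2 fold change 1.07 ± 0.19, limma adjusted p = 0.015), and Meis3 from 3.28 to 9.05 FPKM (1.18 ± 0.24, adjusted p = 0.022). The most abundant relative, Meis2, had a log2 fold change of -0.17 (adjusted p = 0.60). The median of the list was 0.46.

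Of 14 tested partners that repress, 6 were called higher and 0 lower, with a median of 0.36. Of these 6, 3 were class IIa histone deacetylases, which bind MEF2 proteins. Hdac5 was read at 7.11, 5.16, 6.16 and 11.5 FPKM in P1 and 26.5, 20.3, 20.5 and 16.5 FPKM in P7 (log2 fold change 1.40 ± 0.24, limma adjusted p = 0.013). Hdac7 (1.07 ± 0.19, adjusted p = 0.015) and Hdac4 (0.76 ± 0.18, adjusted p = 0.036) rose too, and the fourth, Hdac9, was at 0.18 (adjusted p = 0.62). The others were the Iroquois genes Irx3 (1.06), Irx4 (0.91) and Irx5 (0.87), of which Irx4 marks the ventricle. Hopx, the most abundant of the list, was at 0.19 (adjusted p = 0.61). Hey2, a Notch target of the compact ventricular wall that was named after its values were seen, was below every P1 heart in every P7 heart (30.3, 26.2, 22.1 and 36.3 against 19.1, 15.9, 18.4 and 15.2 FPKM), with an adjusted p of 0.072. It was called lower with median-ratio scaling (-0.93, adjusted p = 0.0027). None of the 6 was called after correction for GC content, where the adjusted p of Hdac5 was 0.074.

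Of 19 tested partners that activate, 1 was called, Mkl1, which encodes a coactivator of SRF (log2 fold change 0.95 ± 0.22, limma adjusted p = 0.033). Tead1, the most abundant, was at 0.29 (adjusted p = 0.45). The median was 0.31. Mkl1 had no transcript GC content under this symbol, so its estimate was unchanged in the fit with GC correction, where its limma adjusted p was 0.056. It was not called with median-ratio scaling (limma adjusted p = 0.054) or the replicate block (0.051), and was called with quantile normalization (0.035).

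Of the 16 sarcomere targets, 0 were called by limma. Their median was 0.42, the most abundant was the ventricular light chain gene Myl2 (0.14, adjusted p = 0.78), and the greatest difference was that of Mybpc3, encoding myosin-binding protein C (1.00, adjusted p = 0.10). Of 15 conduction and secretion targets 2 were called higher, both potassium channel genes. Kcna5 went from 5.17 to 13.0 FPKM (1.18 ± 0.21, adjusted p = 0.014) and Kcnh2 from 15.8 to 34.0 FPKM (1.09 ± 0.23, adjusted p = 0.023). Pln, encoding phospholamban and the most abundant, was at 0.38 (adjusted p = 0.40). Nppa, the natriuretic peptide gene activated by GATA4, NKX2-5 and TBX5, was named after its values were seen. Its P7 values (800.3 to 1188 FPKM) lay under all P1 values (1315 to 1781 FPKM), at -0.50 with an adjusted p of 0.26. The same held for Slc8a1 (394 to 708 FPKM in the P1 hearts and 196 to 387 FPKM in the P7 hearts), at -0.82 with an adjusted p of 0.12, and it was called lower with median-ratio scaling (-1.07, adjusted p = 0.013) and quantile normalization (-1.05, adjusted p = 0.031).

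Of the 4 cell cycle inhibitor genes listed here as targets of MEIS1, 2 were tested and both were called higher. Cdkn2a and Cdkn2b were below the filter, and whether MEIS1 acts on any of these genes was not tested. Cdkn1a was read at 3.12, 4.56, 2.03 and 2.07 FPKM in P1 and at 5.52, 6.88, 5.98 and 5.77 FPKM in P7 (log2 fold change 0.88 ± 0.22, limma adjusted p = 0.045). Cdkn2c was read at 22.1, 15.0, 15.8 and 15.3 FPKM in P1 and at 31.6, 22.9, 56.0 and 39.97 FPKM in P7 (1.04 ± 0.26, adjusted p = 0.044). For both, the stages did not overlap. Neither was called after correction for GC content (limma adjusted p = 0.16 and 0.24) or with median-ratio scaling (0.14 and 0.056). With quantile normalization the limma adjusted p was 0.13 for Cdkn1a and 0.047 for Cdkn2c, and with the replicate block 0.055 and 0.043.

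Markers of the cell types of the heart were read beside these values. All 8 cardiomyocyte markers were expressed, 0 of the 8 were called, and their summed level ranged from 12355 to 22143 FPKM at P1 and from 18293 to 28928 FPKM at P7. The summed level of 8 fibroblast markers ranged from 859 to 1760 at P1 and from 1851 to 2338 at P7, with 5 of 8 genes called higher. That of 8 endothelial markers was 150.4 to 234 and 261 to 389, with 3 of 8 called higher, whereas Emcn (-0.43, adjusted p = 0.24) and Npr3 (-0.58, adjusted p = 0.14) had all 4 P7 hearts under the lowest P1 heart without a call. That of the 7 leukocyte markers found was 17.6 to 23.6 and 36.8 to 49.4, with 2 of the 7 under 1 FPKM in every heart. The 8 smooth muscle and pericyte markers summed to 305 to 639 in P1, where the highest was replicate 4, and to 259.6 to 393 in P7, with 2 genes called higher (Kcnj8 and Pdgfrb) and 1 lower (Cnn1, -0.998, adjusted p = 0.044). The remaining marker sums overlapped between the stages for red blood cell, atrial and epicardial genes and not for nerve genes (4.14 to 6.58 and 8.40 to 12.2). Of the 6 nerve genes found, 2 were under 1 FPKM in every heart. Of the 4 nerve genes tested, 1 had every P7 heart above every P1 heart and 1 had every P7 heart below. In the atrial, epicardial, leukocyte and nerve lists 1 gene each was called higher, and in the red blood cell list 0. All these calls are on the deposited values, beside 7.74% of annotated loci called higher, and scaling or GC correction was not compared for the markers. GATA6, HAND2, MEF2 and MEIS1 proteins are also made outside cardiomyocytes, and the part of the fibroblast and endothelial markers in the member values was not tested.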

How the data were processed

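Each of the 8 libraries held ribosome-depleted RNA of 1 heart, 4 per stage. Alignment was to GRCm38, and the authors deposited 1 table per heart, with FPKM for each locus of a merged Ensembl-based annotation; the counting tool and its use of strand are not given in the sources used here. One blank row in each of the 8 tables was removed. The members and gene lists were chosen with earlier results of these data known.

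Loci with at least 1 FPKM in 1 or more hearts were tested on log2(FPKM + 1) with limma 3.58.1 (R 4.3.3, empirical Bayes with trend) and Benjamini-Hochberg adjustment over all loci tested. A call needed an adjusted p below 0.05 and a ratio of at least 1.5, the thresholds of the study, whose test is not named. The fold change is on the log2(FPKM + 1) scale and understates that of low loci. GC content was that of the longest GENCODE transcript of a symbol and was known for 85.1% of the tested annotated loci; the correction subtracted a smooth curve (lowess, span 0.3) in each heart. Ratios within hearts and neighbours in the order of levels were compared with exact tests (Python 3.11.15). Promoter sequences were taken from RefSeq. The limma script was tested on simulated data.

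Named genes were all members and, of each list, the called genes, the most abundant gene and the gene with the greatest difference. The 2 loci nearest in profile to each member and some of the loci overlapping a member were named too. Alternatives were another pseudocount, filter, scaling or variance model, a replicate block, GC correction and omission of each heart. Replicates are separate hearts, and each p measures the spread between them.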

Additional observations from a re-analysis of the deposited data

Results flagged for a closer look

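A group of 4 values lay far from the other 3 hearts of their stage, by Dixon's ratio of the gap to the range. Chance flags about 1 in 20 groups, which is 3.2 of the 64 groups examined. The other Hand2 locus stood at 31.6 FPKM in P1 replicate 1 against 24.2 to 25.4 in the rest of P1 (ratio 0.845), and without that heart its log2 fold change was 0.87 with a limma adjusted p of 0.056, no longer past the threshold. AC130654.1, which overlaps Gata6, was at 21.1 FPKM in P1 replicate 1 against 16.1 to 16.9 (ratio 0.831). Among the loci without a symbol that share the coordinates of Hand2, XLOC_070312 was at 2.37 FPKM in P7 replicate 3 against 31.6 to 36.6 (ratio 0.855), and XLOC_070316 was at 84.2 FPKM in P1 replicate 4 against 37.4 to 42.6 (ratio 0.889).

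The 15 loci without a symbol on the coordinates of Hand2 entered no comparison, although 11 of them had a mean over 10 FPKM. Their FPKM summed to 424 on average over the 8 hearts, from 437 to 536 in P1 and from 215 to 484 in P7, where replicate 3 was lowest.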

How the results depend on the processing

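The count of members called (1) became 0 with no filter on low values, median-ratio scaling, quantile normalization, a limma fit without a trend and GC correction, and 2 when every heart had to reach 1 FPKM. Omitting single hearts gave 0 to 1. The 13 calls among relatives, partners and targets became 6 with no filter, 22 with the filter on every heart, 23 with sample quality weights, 1 with GC correction, and 2 with GC correction and median-ratio scaling. Omitting single hearts gave 0 (without P1 replicate 2) to 20 (without P1 replicate 4). Over the annotated loci the calls moved too, from 1390 higher and 72 lower. They became 591 and 29 with no filter, 2424 and 149 with the filter on every heart, and 2773 and 178 with sample quality weights. With GC correction they were 383 and 25, and they were 156 and 11 without P1 replicate 2 and 2720 and 115 without P1 replicate 4.

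Directions reversed as follows. GC correction gave 0.17 for Mef2c, 0.20 for Mef2a and 0.063 for Tbx20, and joined to median-ratio scaling -0.12 for Nkx2-5 and -0.058 for Gata6. Quantile normalization gave -0.018 for Meis1, and summing both loci gave 0.17 for Hand2. Over the omissions Mef2a ran from -0.15 to 0.039, and it was also above 0 (0.033) without P1 replicate 4. The Gata4/Nkx2-5 ratio ran from -0.11 to 0.26 over the omissions. GC correction weakened Mef2d/Mef2a to 0.38 and Mef2d/Mef2c to 0.40, and Mef2d/Mef2a ran from 0.71 to 1.04 over the omissions. The cause was not tested. Gata4, Mef2d, Tbx5 and the other Hand2 locus kept their direction in all 21 alternatives. Another filter, the replicate block, a fit without a trend and a call by adjusted p alone leave the estimate unchanged. Those alternatives could therefore not change a direction. Of the 9 neighbouring pairs, 3 to 5 differed under the alternatives.

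The replicate numbers did not pair the hearts: same-numbered hearts correlated at -0.08, 0.16, -0.18 and -0.03, and 1 of 4 matched its own number best. With the replicate block 0 members and 8 of the other genes were called, with GC correction as well 0 and 0, and Mef2a, Mef2c and Tbx20 stood at 0.20, 0.17 and 0.063. Paired by number, the log2 differences of Tbx20/Tbx5, Mef2d/Mef2a and Mef2d/Mef2c were -0.84, 0.92 and 0.97, each with an exact p of 0.13, the smallest that 4 pairs allow. Precision is limited by 4 hearts a stage rather than by fragments. The libraries also differed. P1 replicate 3 had 28662 loci of at least 1 FPKM and the other hearts 20269 to 22292. The FPKM of P7 replicate 4 summed to 2136937 and that of the others to 1038650 to 1400587. Without P1 replicate 3 the log2 fold changes were lower for Gata4 (0.53), Gata6 (0.32), Mef2d (0.69) and Tbx5 (0.46) and higher for Nkx2-5 (0.64). The part of these library differences was not tested.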
